A study of Mus musculus with 12 samples.

Results

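The 7 mRNA probes described here read genes of sterol biosynthesis: Hmgcs1, Mvk, Pmvk, Mvd, Lss, Tm7sf2 and Hsd17b7. They are 7 of the 60641 probes of a mouse array for lncRNAs and mRNAs, and each gene is read here by 1 probe. Only 857 mRNA probes could be named, so other probes for these genes may be among the unnamed ones. They were chosen by probe name from the study's list of mRNAs that were higher with POVPC in cells with a non-target siRNA, so their values in that comparison are a description and carry no test.

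Primary mouse aortic smooth muscle cells (SMC) received either a pooled non-target siRNA (siNT) or a blocking siRNA against Oct4 (siOCT4) for 48 h in serum-free medium, and then either POVPC at 10 µg/mL or its vehicle DMSO for 24 h. POVPC is an oxidized phospholipid that is found in atherosclerotic lesions, and OCT4 is a pluripotency factor. The siRNA and the treatment together name the 4 groups (siNT or siOCT4, followed by DMSO or POVPC), and each had 3 single-colour arrays. All groups were transfected cells, and the control groups carried DMSO. For these samples the study's methods name serum-free medium for the transfection only. The knockdown was transient, and no probe could be named for Oct4, so its level was not analysed here. The labels number the replicates 1 to 3 and do not say whether they came from separate cultures or animals, so a p-value measures the spread between these samples, which may be technical.

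Cells build cholesterol from acetyl-CoA in a chain of enzymes. The early part of the chain, the mevalonate pathway, makes the isoprenoid unit from which squalene is assembled, and the late part folds squalene into a sterol and trims it to cholesterol. Genes along the chain are known to be switched on together by the SREBP transcription factors when membrane sterol is low, and in the artery wall SMC both make cholesterol and take it up from lipoproteins. Among the 7 genes, Hmgcs1 makes HMG-CoA, Mvk and Pmvk add phosphates to mevalonate, and Mvd removes carbon dioxide to give isopentenyl diphosphate. Lss closes the ring of lanosterol, Tm7sf2 is a sterol reductase of the membrane that acts after it, and Hsd17b7 is a keto-sterol reductase of the late chain.

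Each probe has 60 bases, and the first 30 are shown, 5′ to 3′, to identify the sequence behind each value.
Hmgcs1 probe, ASMM10AP1B113106107V4: agcaacagagcatattccaagccctgctaa
Mvk probe, ASMM10AP1B103255972V4: ggcagctccagttccggaacagtacctcgt
Pmvk probe, ASMM10AP1B104591258V4: gggtccacttcgtgcttggctgcatttcag
Mvd probe, ASMM10AP1B116378312V4: gcgtcacgctgcaccaggaccagctaaaaa
Lss probe, ASMM10AP1B108720078V4: gtttggcttggaagcgttcgcttgcatggg
Tm7sf2 probe, ASMM10AP1B125998834V4: actgaagcaggtccacctaagaggttgaaa
Hsd17b7 probe, ASMM10AP1B100139014V4: ggctcttgatgaatgtatgaacagttgatt
The probes differ in composition, from 30.0% G and C over the 60 bases of the Hsd17b7 probe to 58.3% in the Pmvk probe, and no probe's level was set against another's. The last 34 bases of the Pmvk probe match RefSeq's window before the second of 2 Pmvk starts, at -250 to -217 from that start, so the probe read a transcript that began farther upstream.

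Signals are given as quantile-normalized log2 values, in the order of replicates 1, 2 and 3 of each group. All spots of the 7 probes were well above background, a call of the scanner software, with the exception of Mvk on siNT-DMSO replicate 2, and none was flagged as an outlier. Over the 12 arrays 49015 to 55326 probes were well above background and no spot was saturated. The scan times in the scanner files' headers fell into 2 sets, and each set is taken here as 1 slide. All siNT arrays and replicates 1 and 2 of siOCT4-DMSO were on slide 1, whereas replicate 3 of siOCT4-DMSO shared slide 2 with siOCT4-POVPC, the group with the fewest probes well above background (49015 to 49472). Of the SMC markers, Smtn, a protein of the contractile filaments, and Tagln, an actin-binding protein, were the ones with a named probe. They were well above background on 12 and 11 of the 12 arrays, a call that most probes had on each array. Their log2 group means were low, from 4.60 to 5.33 for Smtn and from 4.17 to 5.41 for Tagln, beside 4.05 for Mvk in siNT-DMSO.

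The mevalonate pathway was described first. With siNT, Hmgcs1 had log2 signals of 7.62, 8.93 and 7.84 in DMSO and 10.43, 10.88 and 9.04 in POVPC, and with siOCT4 8.79, 9.57 and 8.43 in DMSO and 10.11, 9.73 and 9.33 in POVPC. Its siNT-POVPC arrays all lay above its siNT-DMSO arrays, although replicate 3 did so narrowly, whereas with siOCT4 the highest DMSO array reached into the POVPC arrays. With siNT, Mvk had log2 signals of 4.15, 2.98 and 5.02 in DMSO and 7.36, 8.11 and 6.29 in POVPC, and with siOCT4 5.97, 5.75 and 4.79 in DMSO and 7.90, 7.41 and 7.59 in POVPC. Mvk was dim in siNT-DMSO, where its spots were closest to background, and its POVPC arrays stood clear of its DMSO arrays with either siRNA.

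With siNT, Pmvk had log2 signals of 5.83, 7.11 and 6.49 in DMSO and 8.57, 9.59 and 7.79 in POVPC, and with siOCT4 7.48, 7.99 and 6.34 in DMSO and 8.87, 8.19 and 8.35 in POVPC. With POVPC its arrays were higher than with DMSO for either siRNA, by a small gap with siOCT4. With siNT, Mvd had log2 signals of 5.19, 5.87 and 5.73 in DMSO and 8.20, 8.52 and 6.54 in POVPC, and with siOCT4 6.83, 7.19 and 5.77 in DMSO and 8.51, 7.76 and 8.17 in POVPC. The 3 siNT-DMSO arrays of Mvd lay close together, and replicate 3 was the low array of both siNT-POVPC and siOCT4-DMSO.

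The late sterol enzymes followed. With siNT, Lss had log2 signals of 6.56, 7.57 and 6.76 in DMSO and 8.64, 9.50 and 8.28 in POVPC, and with siOCT4 8.05, 8.79 and 7.29 in DMSO and 9.46, 8.82 and 9.20 in POVPC. The POVPC arrays of Lss were above the DMSO arrays for each siRNA, by a small gap with siOCT4. With siNT, Tm7sf2 had log2 signals of 7.73, 5.89 and 8.18 in DMSO and 9.19, 9.80 and 9.94 in POVPC, and with siOCT4 8.00, 6.51 and 5.35 in DMSO and 10.65, 9.91 and 10.15 in POVPC. Its DMSO arrays were widely scattered for either siRNA, and its POVPC arrays were tightly grouped above them. With siNT, Hsd17b7 had log2 signals of 10.09, 10.77 and 10.30 in DMSO and 13.79, 14.08 and 11.35 in POVPC, and with siOCT4 11.95, 12.44 and 10.95 in DMSO and 14.07, 13.21 and 13.33 in POVPC. Replicate 3 of siNT-POVPC stood well below the other two Hsd17b7 arrays of its group and still above every siNT-DMSO array.

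**Figure D1:**
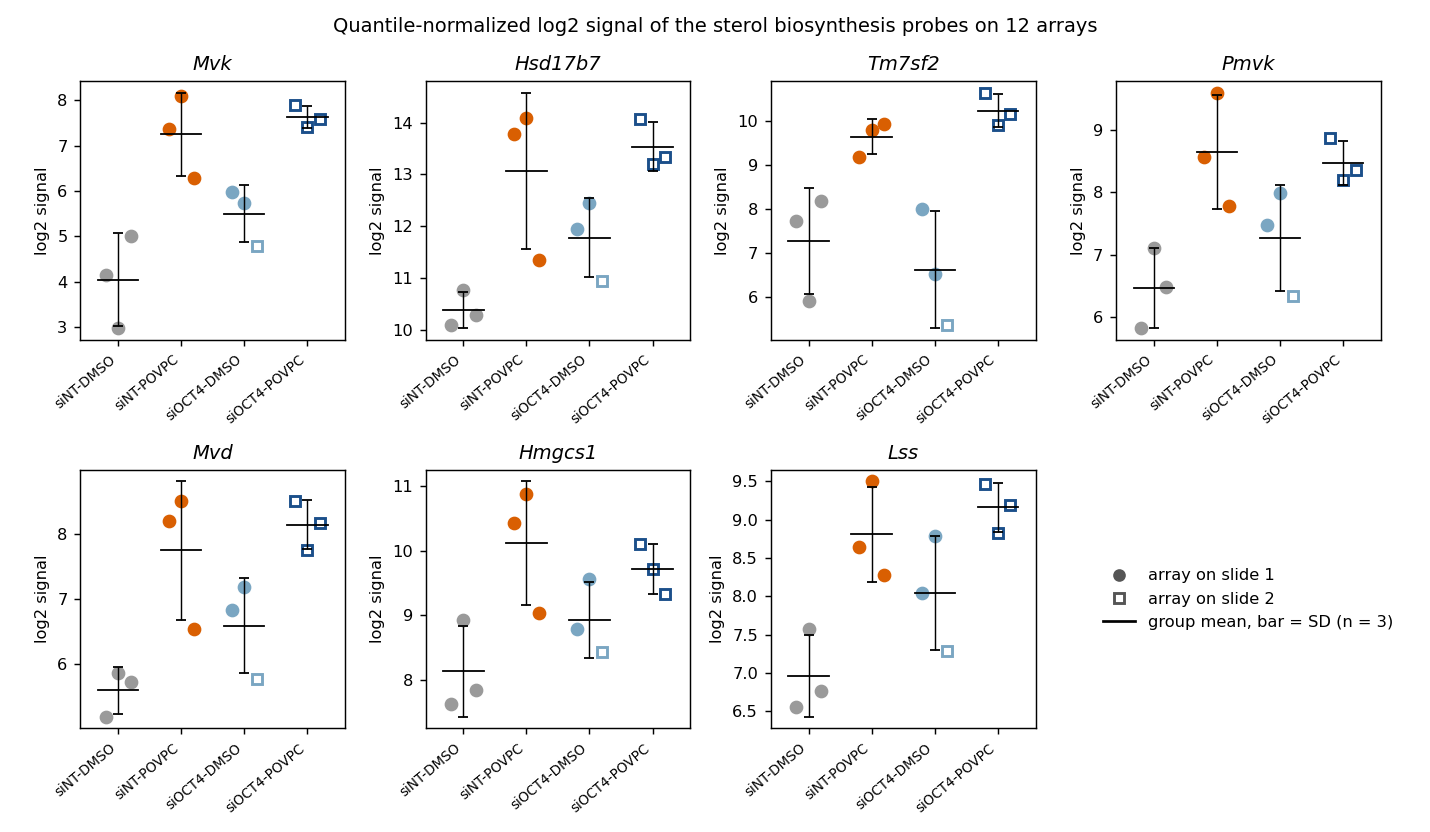
Quantile-normalized log2 signal (vertical axes, each with its own range) of the 7 probes on the 12 arrays, in 4 groups of 3, with the group mean as a line and the SD as a bar; circles are arrays on slide 1 and open squares arrays on slide 2. In each panel the siNT-POVPC arrays lie above the siNT-DMSO arrays, and siOCT4-DMSO replicate 3, the open square of its group, is the lowest array of that group.

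Group means placed siNT-DMSO lowest in 6 of the 7 genes, and Tm7sf2, whose lowest mean was that of siOCT4-DMSO at 6.62 ± 1.33 (SD, n = 3), was the exception. Part of that order was set by the choice of probes higher in siNT-POVPC than in siNT-DMSO. The highest mean was that of siOCT4-POVPC in Mvk, Mvd, Lss, Tm7sf2 and Hsd17b7 and that of siNT-POVPC in Hmgcs1 and Pmvk. In all 7 genes the arrays of the 2 POVPC groups overlapped, so their order is not separated beyond the spread.

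In siNT cells POVPC went with higher signals of all 7 probes, by which they had been chosen. The log2 differences were 1.99 ± 0.49 for Hmgcs1, 3.20 ± 0.54 for Mvk, 2.17 ± 0.51 for Pmvk, 2.15 ± 0.50 for Mvd, 1.84 ± 0.42 for Lss, 2.38 ± 0.66 for Tm7sf2 and 2.69 ± 0.63 for Hsd17b7 (SE of the fit, 3 arrays per group). They correspond to folds of 3.58 for Lss to 9.18 for Mvk. In 7 of 7 probes every POVPC array was above every DMSO array, as it was in 7.37% of the 20625 mRNA probes tested, and nothing is read from this share because the probes were selected on these arrays. The Mvk difference depended on the background correction, and was 1.51 ± 0.29 when the scanned signals were corrected by normexp, a model of signal plus background.

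POVPC was next compared with DMSO in siOCT4 cells, which asks how the response to POVPC ran in SMC with Oct4 knocked down. The differences themselves used none of the siNT arrays on which the probes had been chosen, but all 12 arrays were normalized together and share the estimate of the spread that sets each SE and p. Without siNT-POVPC replicate 3 the SE of Hsd17b7 was 0.37 in place of 0.63 (limma adjusted p = 0.147), and with only the 2 siOCT4 groups in the fit the adjusted p of the 7 probes in limma lay between 0.209 and 0.332. All 7 probes had higher means with POVPC, as had 50.4% of mRNA probes, with a median log2 difference of 1.55, against 0.0037 over the 20625 mRNA probes. Tm7sf2 differed most, by 3.62 ± 0.66 on the log2 scale or 12.3-fold, and ranked 6 of all mRNA probes by its difference (limma, Benjamini-Hochberg adjusted p = 0.177). Mvk differed by 2.13 ± 0.54 or 4.39-fold and ranked 69 (limma adjusted p = 0.235), with a difference of 1.28 ± 0.29 under normexp, and Hsd17b7 differed by 1.75 ± 0.63 or 3.37-fold (limma adjusted p = 0.297).

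Tm7sf2, the sterol reductase, had the largest difference in siOCT4 cells and the third largest in siNT cells. Mvd differed by 1.55 ± 0.50 or 2.93-fold (limma adjusted p = 0.273) and Pmvk by 1.20 ± 0.51 or 2.30-fold (limma adjusted p = 0.350). Lss differed by 1.12 ± 0.42 or 2.17-fold (limma adjusted p = 0.310). Hmgcs1, the first enzyme of the chain among the 7, had the smallest difference, 0.80 ± 0.49 or 1.74-fold (limma adjusted p = 0.492), and was the one probe whose POVPC and DMSO arrays overlapped.

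None of the 7 probes passed an adjusted p under 0.05 with a fold of at least 1.5 in limma, against 0.00485% of mRNA probes. At an unadjusted p under 0.05 with the same fold, 6 of the 7 passed in limma, all but Hmgcs1, against 4.53% of mRNA probes. By the methods' t-test, 4 of the 7 passed unadjusted, against 3.03% of mRNA probes, and 0 after adjustment. In 6 of the 7 probes every POVPC array was above every DMSO array, which held for 14.6% of mRNA probes. An exact permutation test of 3 arrays against 3 cannot give a p below 0.1.

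The slide moved with this comparison. With siOCT4 the POVPC arrays were all on slide 2, and the only DMSO array on that slide was replicate 3, which was lowest of its group in 7 of 7 probes. The share of all mRNA probes with that array lowest was not counted, so nothing is read from this count. Within slide 2 that array lay below all 3 POVPC arrays in 7 of 7 probes, as in 43.1% of mRNA probes, and the median log2 difference was 2.38. In that fit, where a lone DMSO array is assumed to vary as the POVPC arrays do, 7 of the 7 probes passed the adjusted limit in limma and so did 15.3% of mRNA probes. With slide as a block in the fit of all arrays, Mvk, Mvd, Lss and Tm7sf2 passed, 4 of the 7 against 4.94% of mRNA probes, and Lss lay just under the limit (limma adjusted p = 0.04998). With that block the log2 difference was 2.13 for Pmvk, 2.38 for Mvd, 1.87 for Lss and 1.30 for Hmgcs1. Without siOCT4-DMSO replicate 3 it was 0.73 for Pmvk, 0.74 for Lss and 0.54 for Hmgcs1, and the median over the 7 was 1.13. The part of the slide in the differences was not tested beyond these values.

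**Figure D2:**
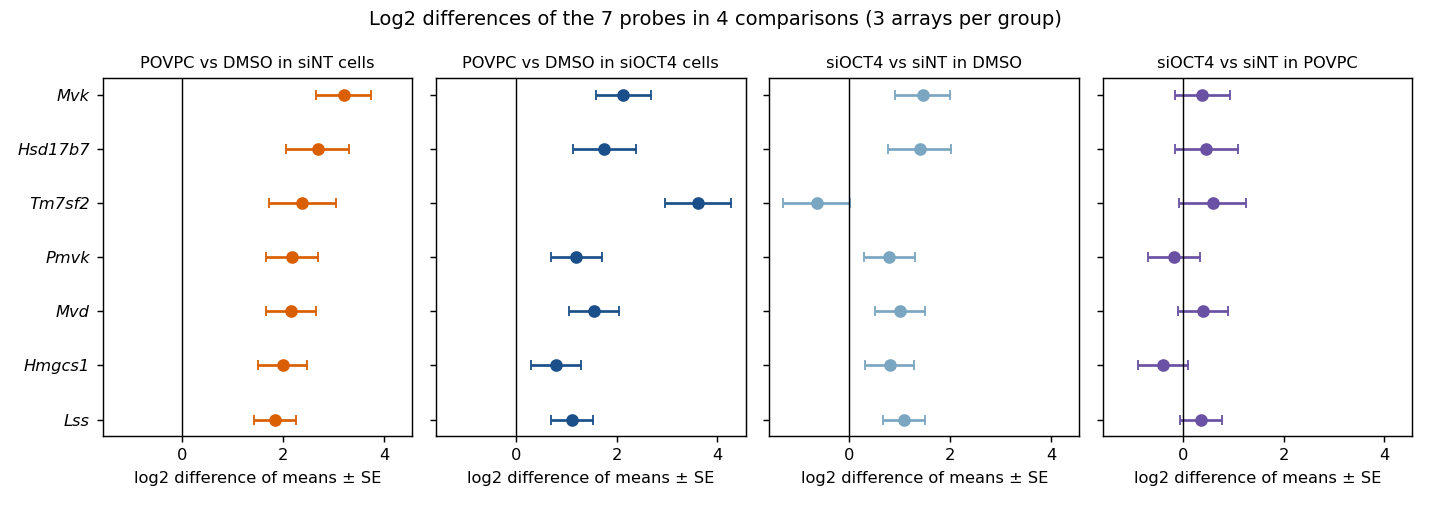
Log2 differences between group means (horizontal axes, log2 units) of the 7 probes in 4 comparisons of 3 arrays with 3, with the standard error of the fit as bars and a line at 0. The points of both POVPC comparisons lie above 0, from 1.84 to 3.20 in siNT cells and from 0.80 to 3.62 in siOCT4 cells, and Tm7sf2 lies below 0 for siOCT4 vs. siNT in DMSO, at -0.65 with all arrays and at -0.0113 without siOCT4-DMSO replicate 3.

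Beside each other, the POVPC differences were smaller with siOCT4 than with siNT in 6 of the 7 probes. The siOCT4 value minus the siNT value was -1.19 for Hmgcs1, -1.07 for Mvk, -0.97 for Pmvk, -0.93 for Hsd17b7, -0.72 for Lss and -0.60 for Mvd on the log2 scale. Tm7sf2 ran the other way, with a siOCT4 value larger by 1.24. The gaps depended on the slide: with slide as a block 4 of the 7 values stayed smaller with siOCT4, and the gaps were -0.69 for Hmgcs1, -0.36 for Mvk, -0.10 for Hsd17b7, -0.0397 for Pmvk, 0.0278 for Lss, 0.22 for Mvd and 2.51 for Tm7sf2. Without siOCT4-DMSO replicate 3, 6 of the 7 were smaller and the Tm7sf2 gap was 0.60. Since the siNT value chose the probes, these gaps are a description and were not tested.

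In DMSO the effect of the Oct4 siRNA was read without POVPC. There 6 of the 7 probes had a higher mean with siOCT4 than with siNT, as had 44.6% of mRNA probes. These values share the siNT-DMSO arrays with the comparison that chose the probes and are given without a test. Mvk differed by 1.45 ± 0.54, Hsd17b7 by 1.40 ± 0.63, Lss by 1.08 ± 0.42, Mvd by 1.00 ± 0.50, Hmgcs1 by 0.80 ± 0.49 and Pmvk by 0.79 ± 0.51 on the log2 scale (SE of the fit, 3 arrays per group), while Tm7sf2 differed by -0.65 ± 0.66. The Tm7sf2 value rested on single arrays, and was -0.0113 without siOCT4-DMSO replicate 3 or within slide 1, -1.34 without siNT-DMSO replicate 2 and -1.34 without siOCT4-DMSO replicate 1. The median was 1.00, against -0.0569 over all mRNA probes. The Mvk difference was 0.49 ± 0.29 under normexp. Hsd17b7 alone had all 3 siOCT4 arrays above all 3 siNT arrays, as had 9.71% of mRNA probes.

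Part of the overlap in the other genes lay with siOCT4-DMSO replicate 3. Within slide 1, which held 2 siOCT4-DMSO and 3 siNT-DMSO arrays, both siOCT4 arrays were above all siNT arrays in 5 of the 7 probes, Mvk, Hsd17b7, Pmvk, Mvd and Lss, and the median log2 difference was 1.41. Among all mRNA probes 19.3% had that order within slide 1. On slide 1 Hmgcs1 and Tm7sf2 were those whose siOCT4 arrays reached into the siNT arrays.

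In POVPC, siOCT4 and siNT cells had levels of the 7 genes that overlapped in each, and all siOCT4 arrays were higher in 18.3% of mRNA probes. The log2 differences ran from -0.39 for Hmgcs1 to 0.59 for Tm7sf2, with a median of 0.38 against -0.0760 over all mRNA probes. Pmvk, at -0.18, was the other probe with a lower mean in siOCT4 cells. The median was -0.21 without siNT-POVPC replicate 3, the low array of that group, and 1.48 with slide as a block. These groups lay wholly on different slides, and slide and siRNA cannot be told apart in them except through the single siOCT4-DMSO array on slide 2.

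Within groups most of the 7 probes deviated together from array to array. On siOCT4-DMSO replicate 3 all 7 were below their group mean, by 0.50 to 1.27 on the log2 scale, and on siNT-POVPC replicate 2 all 7 were above it, by 0.16 to 1.01. On siNT-POVPC replicate 3, 6 of the 7 were below their mean and Tm7sf2 was above it. The shares of all mRNA probes were not counted for these arrays, so a shift of the whole array cannot be told apart here. The SD within groups was 0.58 for Lss to 0.94 for Tm7sf2, against a median of 0.315 over all mRNA probes.

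The deviations from the group means gave a Pearson r over the 12 arrays for each of 21 pairs of probes, as a description. Mvd and Hsd17b7 had the highest r, 0.97, followed by Pmvk and Lss with 0.96, and the median over 21 pairs was 0.68. Among the 15 pairs without Tm7sf2 the median r was 0.86 (0.26 to 0.97). The 6 pairs with Tm7sf2 had a median of 0.0505, and its highest r was 0.68, with Mvk. Without siNT-POVPC replicate 3 and siOCT4-DMSO replicate 3, the arrays with the largest mean deviations, the 15 pairs without Tm7sf2 had a median r of 0.79 over 10 arrays, but with a range of -0.22 to 0.95. All points share the same arrays and their normalization.

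**Figure D3:**
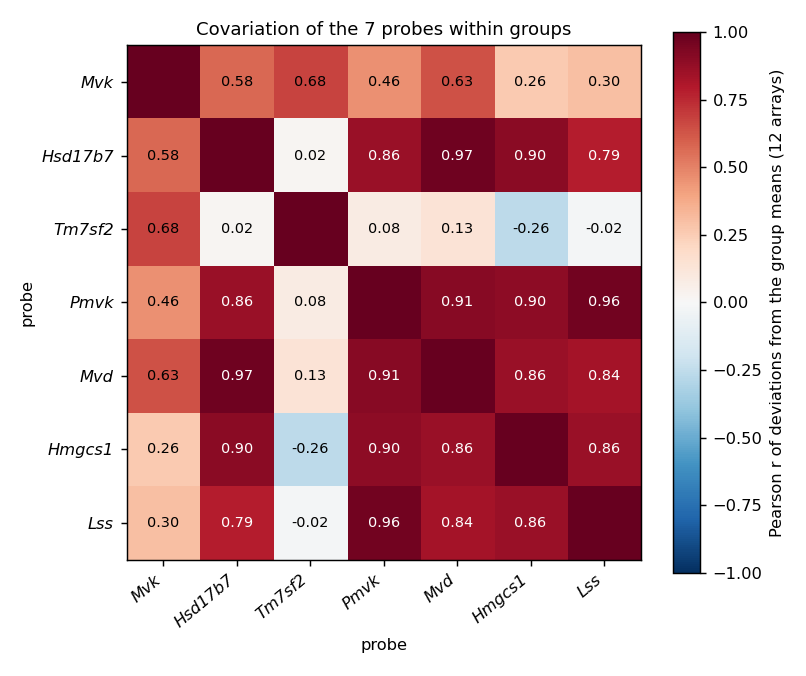
Pearson r of the deviations from the group means over 12 arrays for each pair of the 7 probes (colour scale and printed values; both axes list the probes, the diagonal is each probe with itself). Hsd17b7, Pmvk, Mvd, Hmgcs1 and Lss form a block with r from 0.79 to 0.97, and Tm7sf2 has r from -0.26 to 0.13 with those 5.

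The promoters of the genes were read from RefSeq windows of 300 bases (build GRCm38.p6), from 250 bases before each start to 49 after it, with the start base at 0; Pmvk had 2 starts, so there were 8 windows. The motifs searched, on both strands, were TCACNCCAC for the sterol regulatory element bound by SREBP, CCAAT for the box bound by NF-Y, CACGTG for an E-box and GGGCGG for a GC box bound by Sp1. No matches overlapped. The sterol regulatory element matched in 1 of the 8 windows, that of Hmgcs1 at -137 to -129, and in 1.24% of all 32851 windows. The CCAAT box matched in 7 of the 8 windows and in 37.4% of all, and at least 2 matches were found in 4 of the 8 windows and in 11.7% of all.

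Mvk held 5 CCAAT matches, Hmgcs1 4, Hsd17b7 3 and Mvd 2, while Lss, Tm7sf2 and the first Pmvk window held 1 each. A GC box matched in 6 of the 8 windows and in 35.7% of all, and an E-box in the Hsd17b7 window only and in 7.15% of all. A match of letters is no evidence of binding, and its absence says nothing of the factor. The 250 bases before the start are printed 5′ to 3′ in the direction of the gene. They are given for Hmgcs1, which held the sterol element, and for Mvk and Hsd17b7, which held several CCAAT boxes. Those of Tm7sf2, the probe with the largest POVPC difference in siOCT4 cells among the 7, are printed too. Capitals mark the sterol element and the CCAAT boxes, which read ATTGG where they lie on the other strand.
Hmgcs1 promoter (chr13:119690101-119690350, + strand): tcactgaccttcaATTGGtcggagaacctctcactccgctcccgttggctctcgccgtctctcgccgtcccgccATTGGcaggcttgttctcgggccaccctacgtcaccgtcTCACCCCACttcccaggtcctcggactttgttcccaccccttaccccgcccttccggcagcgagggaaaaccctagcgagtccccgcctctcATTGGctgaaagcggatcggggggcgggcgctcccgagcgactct
Mvk promoter (chr5:114444019-114444268, + strand): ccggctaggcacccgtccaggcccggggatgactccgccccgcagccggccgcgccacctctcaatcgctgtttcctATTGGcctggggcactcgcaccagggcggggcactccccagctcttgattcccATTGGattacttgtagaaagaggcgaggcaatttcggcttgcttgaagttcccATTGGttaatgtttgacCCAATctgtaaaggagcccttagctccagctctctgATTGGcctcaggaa
Hsd17b7 promoter (chr1:169969206-169969455, - strand): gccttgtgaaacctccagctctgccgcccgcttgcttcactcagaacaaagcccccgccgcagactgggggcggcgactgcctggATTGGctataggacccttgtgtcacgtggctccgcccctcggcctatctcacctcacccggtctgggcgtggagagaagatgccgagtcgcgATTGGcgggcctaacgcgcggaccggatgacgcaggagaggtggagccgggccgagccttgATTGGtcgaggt
Tm7sf2 promoter (chr19:6067851-6068100, - strand): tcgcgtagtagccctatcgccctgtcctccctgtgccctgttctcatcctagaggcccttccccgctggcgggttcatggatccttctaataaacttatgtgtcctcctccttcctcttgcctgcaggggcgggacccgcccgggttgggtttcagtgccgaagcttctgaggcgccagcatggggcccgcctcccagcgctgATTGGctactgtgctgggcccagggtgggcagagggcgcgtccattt

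**Figure D4:**
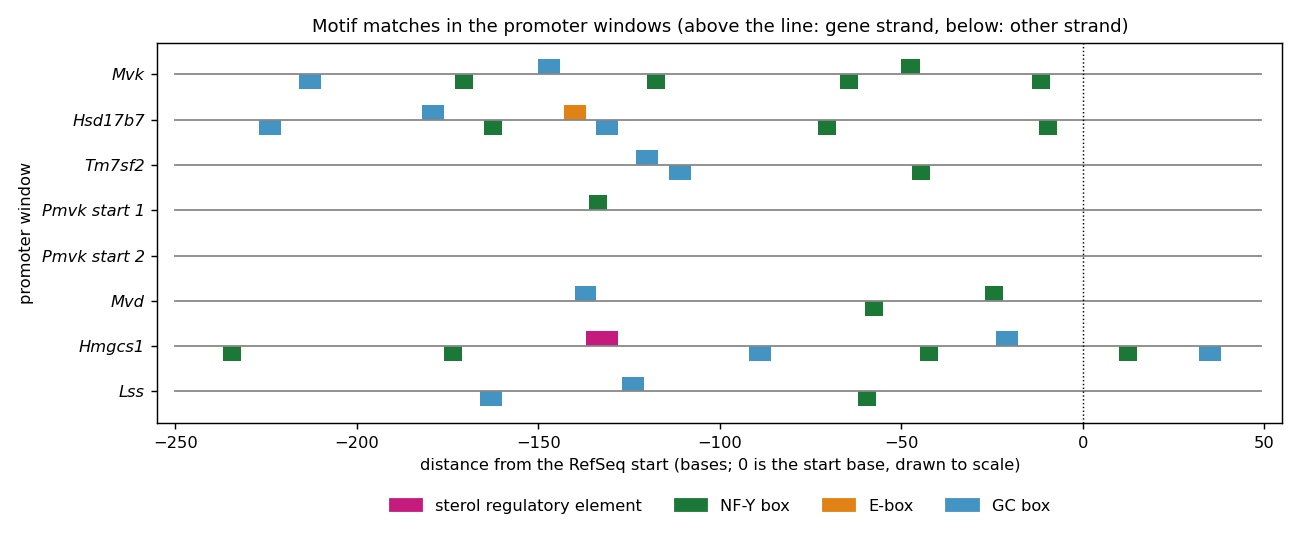
Motif matches in the 8 promoter windows (horizontal axis, bases from the RefSeq start, drawn to scale; rows are genes, boxes above a line are on the gene's strand and below it on the other). The Hmgcs1 row holds the only sterol regulatory element, Mvk holds 5 NF-Y boxes, and the second Pmvk window holds no match.

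Other genes of lipid metabolism were taken from lists of 16 further cholesterol synthesis genes, 8 genes that control them, 11 genes of uptake, storage and efflux and 14 of fatty acid synthesis. Probes could be named for 1, 0, 3 and 5 of these genes, and nearly all named probes come from the study's lists of change with POVPC in siNT cells, so they are no neutral sample of the pathway. Of the 10 probes for these 9 genes, 9 had higher means with POVPC in siOCT4 cells, beside 50.4% of all mRNA probes, with a median log2 difference of 1.04. None had an adjusted p under 0.05 in limma, against 0.00485% of mRNA probes, and 7 had an unadjusted p under 0.05, 6 of them higher and Npc1l1 lower, against 15.1% of mRNA probes in either direction.

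Erg28, a scaffold of the late sterol enzymes, differed by 1.06 ± 0.36 on the log2 scale between siOCT4-POVPC and siOCT4-DMSO (limma adjusted p = 0.283). Among genes of fatty acid synthesis, the desaturases Scd1, Scd4 and Fads2 differed by 1.61 ± 0.49, 1.37 ± 0.35 and 1.59 ± 0.42, and the elongase Elovl5 by 0.38 ± 0.38. The probes of Acss2, which makes acetyl-CoA from acetate, differed by 2.13 ± 0.67 and 0.52 ± 0.30. Of the genes of uptake, the lipoprotein receptor Lrp1 differed by 1.02 ± 0.37, the HDL receptor Scarb1 by 0.22 ± 0.23 and the sterol transporter Npc1l1 by -3.19 ± 0.93, and Npc1l1 was well above background on 9 of the 12 arrays.

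With slide as a block 5 of the 10 probes had an adjusted p under 0.05 in limma, as had 10.3% of mRNA probes, and within slide 2, with its single DMSO array, it was 8, against 33.7% of mRNA probes. As a wider reading, of the 443 mRNA probes listed as higher with POVPC in siNT cells, 314 had a higher mean with POVPC in siOCT4 cells (50.4% of all mRNA probes had), their median log2 difference was 0.26, and in 34.8% every POVPC array was above every DMSO array, against 14.6% of all mRNA probes. The 7 sterol probes are among these 443, and 74 of the 443 had a difference at least as large as that of Hmgcs1, the lowest of the 7.

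Markers of cell types could be named for SMC (Smtn and Tagln) and fibroblasts (Pdgfra and Thy1), all from the list of mRNAs lower with POVPC in siNT cells, and no probe could be named for the 3 endothelial and 4 macrophage markers. In siOCT4 cells the log2 difference with POVPC was 0.21 ± 0.23 for Smtn, -0.44 ± 0.19 for Tagln, 0.20 ± 0.24 for Pdgfra and -0.28 ± 0.23 for Thy1, and each pair of groups overlapped. In siNT cells the differences were -0.73 for Smtn, -0.88 for Tagln, -0.83 for Pdgfra and -0.75 for Thy1. In such bulk samples a different share of cells and a different level per cell cannot be told apart, and the part of either was not tested.

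The named probes most like the mean of the 7 over the 12 arrays, among 836 candidates, were those of Tmem42 (r = 0.97), Tlcd1 (r = 0.96), Krt36, a keratin (r = 0.95), Gp1bb, a platelet glycoprotein (r = 0.95), and Aqp1, a water channel (r = 0.95). These r are over levels, with the group differences in them. Nearly all candidates came from the study's lists of change with POVPC in siNT cells, so a like course was partly set by that choice. With the group means removed, the r of the 5 ran from 0.80 for Tlcd1 to 0.94 for Aqp1. Gp1bb was dim in DMSO, with mean log2 signals of 3.66 with siNT and 3.69 with siOCT4. Aqp1 had the widest course of the 5, with mean log2 signals in DMSO and POVPC of 10.56 and 13.07 with siNT and of 10.96 and 12.67 with siOCT4. In siOCT4 cells Aqp1 differed by 1.71 ± 0.62 between POVPC and DMSO, and Tmem42 by 0.40 ± 0.18. The 5 were picked over all 12 arrays, those with siOCT4 among them. Their differences and r are therefore a description and carry no test.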

How the data were processed

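Total RNA of 12 samples was labelled by random priming for single-colour Arraystar mouse lncRNA arrays, and the scans were read by Agilent Feature Extraction 11.0.1.1. The authors deposited each array's output, with processed signals (an intensity from which background had been subtracted) and raw median intensities of spot and surround, and a table of log2 values that their methods describe as quantile normalized. Here outlier spots were set to missing, processed signals under 5 were set to 5, and quantile normalization over the 12 arrays followed on the log2 scale. A probe entered the fit if 3 or more arrays had it well above background, and the 54506 that did were fitted with limma 3.58.1 in R 4.3.3, with a mean per group, with Benjamini-Hochberg adjustment over all of them. A call needed an adjusted p under 0.05 and a fold of at least 1.5. Only POVPC vs. DMSO in siOCT4 cells was tested for the 7 probes; the other comparisons take their differences from arrays of the one that chose them, and comparisons share control arrays among each other. Precision is limited by the number of arrays. The fit was run on simulated data with independent noise for each probe and no slide effect, so that run says nothing of the slide.

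Symbols and probe sequences came from the study's supplementary list of mRNAs changed with POVPC in siNT cells, which names 857 probes, and its p-values and fold changes were not used. The text names the 7 probes, the named probes of the lipid and marker lists, and the 5 named probes most like the mean of the 7. The members and lists were chosen with earlier results of these data known. Promoters were RefSeq's for GRCm38.p6, while the scanner files' headers name an older build, so no coordinates were taken from those.

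The alternatives for the signals were 75th percentile scaling, normexp with an offset of 50 and a floor of 20. Normexp was run on the median signal, the one present, as was chosen after seeing the data. The log2 table of the authors was also used in place of the scanner values. The filter on dim probes was dropped, or set to require all 12 arrays. Other fits took the compared groups alone, the arrays within a slide, or an intensity trend with robust eBayes. The replicate number or the slide was also taken as a block. Other call rules and an equal-variance t-test on the authors' log2 values were run, and each array was left out in turn.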

Additional observations from a re-analysis of the deposited data

How the results depend on the processing

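The count of 0 probes called in siOCT4 cells became 4 with slide as a block and 6 at an unadjusted p under 0.05. It was 4 by the t-test on the authors' log2 values, unadjusted. Apart from the fit within slide 2, which held a single DMSO array, it was 0 under all other alternatives run. Leaving out each array in turn gave 0 in every case, with the adjusted p of Tm7sf2 between 0.0786 and 0.488. The median log2 difference in siOCT4 cells was 2.38 both with slide as a block and within slide 2, and 1.13 to 1.85 with an array left out. That for siOCT4 vs. siNT in POVPC was 1.48 with slide as a block, and -0.21 to 0.70 with an array left out; no fit within a slide was possible, since no slide holds both groups. With an array left out the medians were 1.78 to 2.62 for POVPC in siNT cells and 0.70 to 1.40 for siOCT4 vs. siNT in DMSO. The related lipid probes with an adjusted p under 0.05 numbered 0, and 5 with slide as a block and 8 within slide 2, where 10.3% and 33.7% of mRNA probes passed. The slide alternatives in siOCT4 cells rest on siOCT4-DMSO replicate 3, the single DMSO array on slide 2.

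Single probes changed sign only for siOCT4 vs. siNT in POVPC, where the groups overlapped in all 7. With an array left out the value ran from -0.0981 to 0.81 for Mvk, from -0.40 to 0.97 for Hsd17b7, from -0.21 to 0.78 for Mvd and from -0.61 to 0.30 for Pmvk, the low values of the first 3 without siNT-POVPC replicate 3, and with slide as a block it was 1.22 for Pmvk and 0.36 for Hmgcs1. The cause was not tested. Under normexp the Mvk differences were 1.51 for POVPC in siNT cells and 0.49 for siOCT4 vs. siNT in DMSO, and the Mvd difference for POVPC in siNT cells was 1.45. Under 75th percentile scaling the median of all probes moved to -0.21 for siOCT4 vs. siNT in DMSO and -0.27 in POVPC, with the members' medians at 0.79 and 0.35. The median r of deviations among the 7 probes was 0.68 to 0.84 under the alternatives tried for it, which were chosen after seeing the data. The alternative that left out siNT-POVPC replicate 3 and siOCT4-DMSO replicate 3 kept group means that held them.

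The labels do not say whether same-numbered replicates were paired. The correlations of their deviations ran from -0.20 to 0.36 over the 4 comparisons, and with 3 arrays a group they cannot decide it. With the replicate block 0 of the 7 probes were called in siOCT4 cells (limma adjusted p from 0.229 to 0.348), and the median log2 difference was 1.55. The block changed the SE in both directions, to 0.34 from 0.49 for Hmgcs1 and to 0.58 from 0.54 for Mvk.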
